A study of Mus musculus with 2 samples.

Results

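Genes of glycolysis and of the hypoxia response were followed cell type by cell type in mouse pancreatic tumours from hosts with or without a macrophage-directed deletion of Porcn, the enzyme that attaches the lipid needed for WNT secretion. The set holds 31 named genes of the 32285 that were counted: 18 of glucose uptake, glycolysis and lactate handling, 12 known targets of the hypoxia response, and Hif1a, which encodes the oxygen-regulated subunit of the hypoxia-inducible transcription factor. The genes were taken by name, but the set was chosen with earlier results of these data known. Tumour cells of the KPC mouse model of pancreatic cancer were implanted into the pancreas, and tumours were taken on day 21. The control library came from 5 Porcnfl/fl mice, labelled WT, and the knockout library from 5 Csf1r-Cre;Porcnfl/fl littermates. Both hosts therefore carried the floxed Porcn allele, and only the second carried the Cre, which acts in cells of the Csf1r lineage and not in the implanted tumour cells. Tumours of each genotype were pooled into 1 library, so animals cannot be told apart within a group, and neither age nor sex is given in the labels. With 1 library per genotype no difference between genotypes has a replicate check, and no p-value is given. Intervals below are 95% intervals that cover counting error only.

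Glycolysis splits glucose into pyruvate in the cytosol, and lactate dehydrogenase turns pyruvate into lactate so that the pathway can go on without mitochondrial oxidation. When oxygen is scarce, the prolyl hydroxylases that mark the HIF alpha subunits for destruction slow down, and the HIF dimer binds a short DNA core near its target genes. Those targets include glucose transporters, most glycolytic enzymes and, as a feedback, the hydroxylases themselves. Pancreatic ductal carcinoma is known for a dense stroma, poor perfusion and low oxygen, and its tumour cells are known for heavy glucose use.

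The deposited matrices held 13766 control and 12251 knockout cell barcodes with 173934025 and 137527647 unique molecular identifiers (UMIs, 1 per captured RNA molecule), and 46 barcodes occurred in both libraries. After filtering, 11516 control and 10467 knockout cells remained, with medians of 12167.5 and 10109 UMIs per cell. They were grouped without the 31 genes, and classes were called X-like from marker genes. The tumour-like class held 9438 control and 5760 knockout cells, the fibroblast-like class 405 and 718, the monocyte/macrophage-like class 519 and 559, the neutrophil-like class 292 and 181 and the T-like class 158 and 1469. In most of its clusters the tumour-like name rests on 4 of 9 epithelial markers (Krt8, Krt18, Krt19 and Cdh1). Others, among them Epcam, Cldn4 and Krt7, were near 0 there. In 1 cluster of 162 control and 72 knockout cells all 9 were detected. Porcn itself gave 8 control and 4 knockout UMIs in the monocyte/macrophage-like class, too few to check the knockout label. Levels are given in CPM, the UMIs of a gene per 1000000 UMIs of all cells of a class in 1 library. UMIs from the 3′ end do not scale with gene length, and each gene is compared with itself only. Gapdh, Pgk1, Pgam1, Ldha, Aldoa and Eno1 have near-identical copies elsewhere in the genome, and their counts are uncertain to that extent.

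All 31 genes gave UMIs in tumour-like cells, though Slc2a3, Slc16a3 and Adm gave few. Among the 5 classes compared, each with 100 or more cells per library, 12 genes were at their highest there in both libraries. These 12 were the enzymes Aldoa, Tpi1, Gapdh, Pgk1, Pgam1, Eno1, Pkm and Ldha, and the hypoxia-response genes Egln1, Ndrg1, Car9 and Higd1a. The monocyte/macrophage-like class was highest for Hk2, Gpi1, Pfkl, Pdk1, P4ha1 and Ero1l, the neutrophil-like class for Slc2a3, Slc16a3 and Egln3, the fibroblast-like class for Adm and P4ha2, and the T-like class for Hif1a. The remaining 7 genes, Slc2a1, Hk1, Pfkp, Pfkfb3, Bnip3, Ankrd37 and Ddit4, did not have the same highest class in both libraries.

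The transporters divided by cell type. Slc2a1, the glucose transporter GLUT-1 of most proliferating cells, was read at 129.6 CPM in control and 168.8 CPM in knockout tumour-like cells and at 267 and 297 CPM in monocyte/macrophage-like cells. Slc2a3, a high-affinity glucose transporter of leukocytes and neurons, stood at 302 and 267 CPM in neutrophil-like cells but at 0.64 and 0.67 CPM in tumour-like cells. The lactate exporter Slc16a3 followed the same order, with 246 and 227 CPM in neutrophil-like cells, 144 and 106 CPM in monocyte/macrophage-like cells and 0.41 and 0.23 CPM in tumour-like cells. Tumour-like cells in both libraries thus carried Slc2a1 with almost no Slc2a3 or Slc16a3. Adm, which encodes the vasodilator peptide adrenomedullin, was read at 77.8 and 118 CPM in fibroblast-like cells and at 0.17 and 0.34 CPM in tumour-like cells. Car9, a cell-surface carbonic anhydrase, showed the opposite order, with 175 and 172 CPM in tumour-like cells and 14.4 and 5.5 CPM in fibroblast-like cells.

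Free RNA from the abundant tumour cells gives UMIs in every droplet, and doublets add to it. The highest of the Krt8, Krt18 and Krt19 levels in a class, as a share of their tumour-like level, was used as its upper measure. In control and knockout cells this share was 7.62% and 3.43% for fibroblast-like cells, 8.87% and 4.4% for monocyte/macrophage-like cells, 7.02% and 3.90% for neutrophil-like cells and 3.30% and 2.46% for T-like cells. A gene was taken as read in a class where its CPM was at least 3 times that share of its tumour-like CPM, the free RNA limit. In both libraries 30 of the 31 genes passed in monocyte/macrophage-like cells, 27 in T-like cells, 24 in neutrophil-like cells and 19 in fibroblast-like cells. Car9 passed in none of these 4 classes in either library. Slc2a1, Pgk1, Ankrd37 and Egln3 did not pass in fibroblast-like cells of either library. They were not taken as read there, and their values may in large part be tumour RNA.

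**Figure D1:**
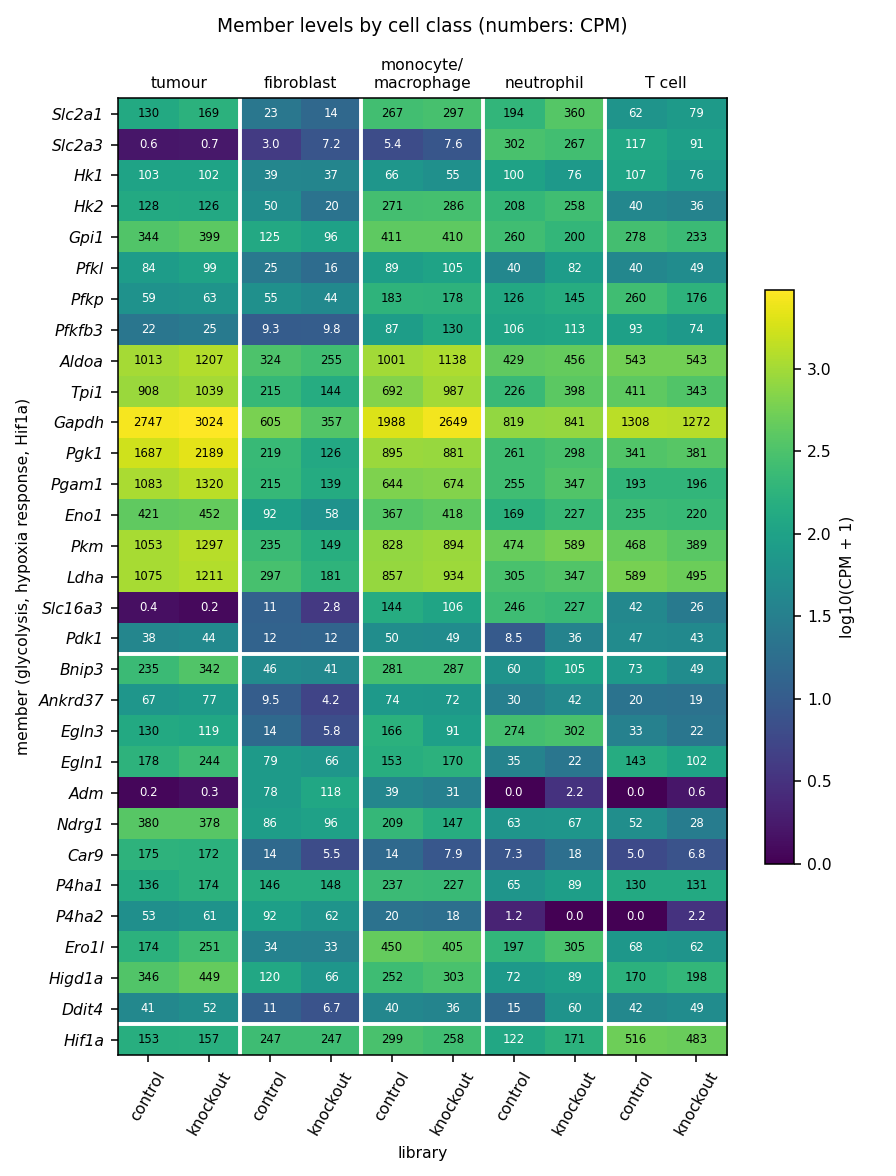
Level of each of the 31 genes (rows) in 5 cell classes of the control and the knockout library (columns), coloured by log10 of CPM + 1, with the CPM printed in each cell. Slc2a3 and Slc16a3 are highest in neutrophil-like cells and below 1 CPM in tumour-like cells, Adm is highest in fibroblast-like cells, and Car9 is highest in tumour-like cells.

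Within the tumour-like class, cells high in the 12 hypoxia-response genes were also high in glycolysis genes. Cells were thinned to 5000 UMIs each, which left out 950 control and 527 knockout cells below that depth, and were divided into 5 bins by their summed UMIs of the 12 genes: 0 to 3, 4 to 5, 6 to 9, 10 to 17 and 18 to 102. The median cell had 6 such UMIs in the control and 8 in the knockout library. The summed CPM of the glycolysis genes over the bins was 5861, 7236, 9211, 13609 and 19750 in control cells. In knockout cells the same sums were 6428, 8083, 10280, 14505 and 20117. The sum therefore went up at every step in both libraries. The bins are cuts through a continuous score, not cell types, and 338 control and 306 knockout cells lay within 1 UMI of the lower edge of the top bin.

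Of the 18 glycolysis genes, 16 had at least 20 UMIs in these cells, and all 16 were at least 1.5 times higher in the top than in the bottom bin in both libraries. Of the 11600 genes read in the same bins, 5.38% met that rule and 19.7% met its counterpart in the lower direction. The median log2 ratio of top to bottom bin was 1.84 in control and 1.61 in knockout cells, against −0.24 and −0.31 for all genes. Slc2a3 and Slc16a3 had too few UMIs to be read. The bins and the glycolysis genes were counted in the same cells of the same library, and cells are not replicates.

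The largest ratios belonged to genes of glucose entry and of its commitment to glycolysis. Slc2a1 was at 47.8 CPM in the bottom and 391.7 CPM in the top bin of control cells, a ratio of 8.2, and at 52.7 and 424.9 CPM in knockout cells, a ratio of 8.1. Hk2, the inducible hexokinase, had ratios of 7.4 and 5.6 in control and knockout cells, whereas the constitutive Hk1 had ratios of 2.4 and 1.8. Pfkfb3, whose product makes the activator of phosphofructokinase, had ratios of 7.7 and 8.3. The platelet-type phosphofructokinase Pfkp gave 6.0 and 4.4 and the liver type Pfkl 3.8 and 4.1. Within each paralogue pair the ranking by ratio was the same in both libraries. In knockout cells, however, the intervals of Pfkp (3.6 to 5.3) and Pfkl (3.6 to 4.8) overlapped.

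The remaining enzymes of both the upper and the lower pathway had smaller ratios than Slc2a1, Hk2, Pfkfb3 and Pfkp, most of them on a larger base. Gapdh, which makes the first NADH-yielding step, went from 1358 to 5431 CPM in control and from 1411 to 5054 CPM in knockout cells, ratios of 4.0 and 3.6. Pgk1, which makes ATP, had ratios of 4.2 and 3.8, and Pdk1, a kinase that inhibits pyruvate dehydrogenase, 3.7 and 2.9. Tpi1, Pgam1, Gpi1, Aldoa, Pkm, Ldha and Eno1 lay between 2.0 and 3.5 in both libraries. Hif1a mRNA, which is not part of either list, had ratios of 1.8 and 1.6, from 121 to 217 CPM in control and from 125 to 197 CPM in knockout cells.

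Each hypoxia-response gene was also read across bins made from the other 11, so that no gene set its own bin. Ero1l, the oxidase that drives disulfide formation in the endoplasmic reticulum, had the largest ratios, 18.7 in control and 17.4 in knockout cells. Ankrd37, an ankyrin-repeat gene known as a HIF target, had 16.1 and 13.8, and Bnip3, a mitophagy receptor, 12.7 and 10.8. P4ha2, a collagen prolyl hydroxylase, gave 9.5 and 9.6, and P4ha1, its paralogue, 3.0 and 3.5. Higd1a, a small mitochondrial protein, gave 8.1 and 7.7. Egln1, the main oxygen-sensing HIF hydroxylase, gave 7.1 and 7.4, against 3.4 and 2.2 for Egln3. Ndrg1, a stress-response gene, gave 5.9 and 7.2, and Ddit4, an inhibitor of mTOR signalling, 5.6 and 4.1. Car9 had the smallest ratios, 2.6 and 1.6, and in knockout cells it was higher in the fourth bin, at 211 CPM, than in the top bin, at 188 CPM. Adm had too few UMIs to be read in this class. All 11 genes read were thus at least 1.5 times higher in the top bin of both libraries.

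**Figure D2:**
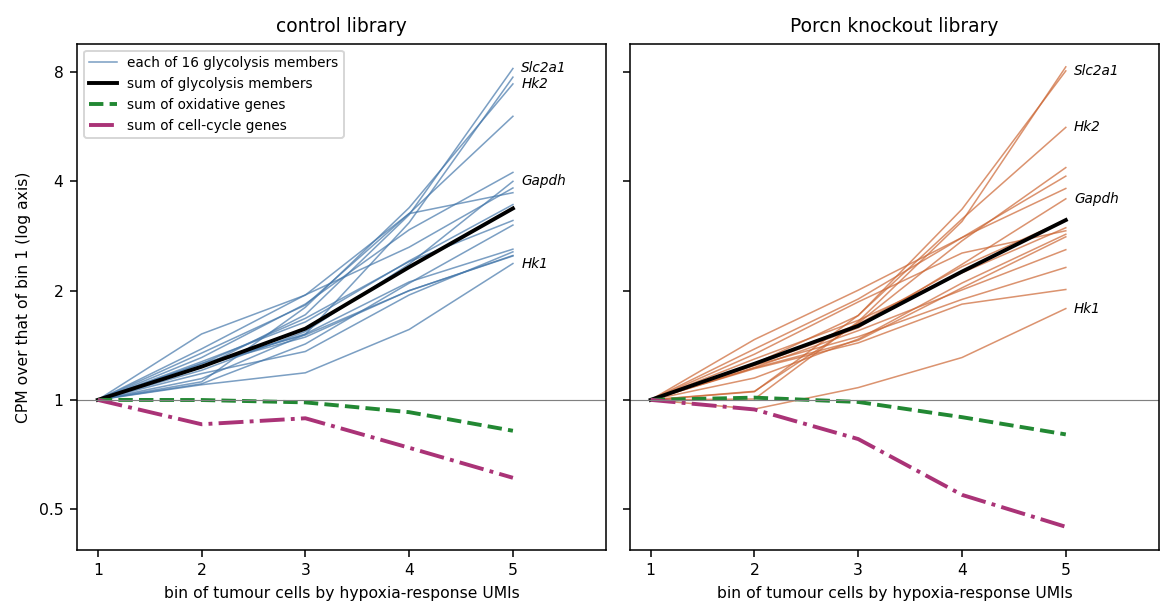
Level of each of 16 glycolysis genes (thin lines), and the sums of the glycolysis, oxidative and cell-cycle lists (thick lines), in 5 bins of tumour-like cells ordered by hypoxia-response UMIs, as CPM over that of the first bin on a log axis, with 1 panel per library. Every glycolysis line ends at 1.8 or higher, with Slc2a1 above 8 in both panels, while the oxidative and cell-cycle sums end below 1. The median of all genes read, not drawn, was also below 1.

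Other gene lists were read across the same bins. Of 25 further hypoxia-response genes read, 21 were at least 1.5 times higher in the top bin in both libraries and 2 were lower, Stc1 (log2 ratio −1.67 in control and −2.53 in knockout cells) and Rora (−1.54 and −2.53). Hilpda, a lipid-droplet protein, had log2 ratios of 4.77 and 5.05, and Hmox1, a haem oxygenase, 4.06 and 4.23. Of 16 further glycolysis genes read, 5 were higher, among them Pgm1, Aldoc, Eno1b and Pdk3, and 3 were lower (Bpgm, Pfkfb2 and Mpc2). Of 25 genes of pyruvate oxidation and the respiratory chain, none was higher and 3 were lower, Ndufa4, Fh1 and Sdhb, a smaller share than among all genes. The median log2 ratios of these 25 were −0.31 in control and −0.30 in knockout cells, near the −0.24 and −0.31 of all genes. Ndufa4, a subunit associated with cytochrome oxidase, had log2 ratios of −1.12 and −1.21. Of 14 cell-cycle genes, 11 were lower, with Mki67 at −1.98 and −2.79. The background for lower genes is the 19.7% given above. The median mitochondrial share of UMIs was also lower, from 2.4% to 1.1% in control and from 2.0% to 0.8% in knockout cells, and the summed immediate-early and heat-shock list was higher, from 1513 to 2575 CPM and from 1753 to 3246 CPM. The part of these lists in the glycolysis pattern was not tested.

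Genes outside every list with the largest smaller-of-both ratio of top to bottom bin were Mgarp (71.9 in control and 57.0 in knockout cells), Ciart (39.0 and 52.7), Bdh2 (33.1 and 51.1), 2610528A11Rik (35.7 and 31.6) and Smtnl2 (22.3 and 23.6). They were followed by Dynap (13.4 and 57.8), Pgf (13.0 and 15.2), Cdkn1a (33.9 and 13.0), Havcr2 (12.9 and 18.7) and Igfbp3 (10.7 and 14.8). Mgarp encodes a mitochondrial protein, Ciart a repressor of the circadian clock, Pgf a growth factor of the VEGF family, Cdkn1a the cell-cycle inhibitor p21 and Igfbp3 a binding protein of insulin-like growth factors.

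Promoter sequence was read for the genes that differed most between the bins, to show the HIF core motif, ACGTG or GCGTG on either strand. Sequences are those of RefSeq on GRCm38.p6, and windows run from 250 bases before to 50 bases after a transcript start. Of the 31 genes, 29 matched the table, 1 of them by a synonym (Ero1l as Ero1a), and Slc2a3 and Ndrg1 did not match. A match to the core was found for 27 of the 29 genes (93.1%), against 46.7% of 27025 genes. At least 2 matches occurred in 68.4% of the genes' windows and in 20.6% of all windows. The genes' windows also had more G and C, a median of 65.5% against 52.7%, and more CpG pairs, 24 against 7, which the motif contains, and the part of base composition in the difference was not tested. Where ACGTG and its complement overlap as CACGTG, both strands are counted. Below are the 150 bases before the start, 5′ to 3′ on the gene's own strand, with matches in capitals, for the 3 hypoxia-response genes and the 3 glycolysis genes with the largest bin ratios, and for Gpi1, 1 of the 2 genes with no match.
Ero1l (chr14:45318573-45318722, minus strand): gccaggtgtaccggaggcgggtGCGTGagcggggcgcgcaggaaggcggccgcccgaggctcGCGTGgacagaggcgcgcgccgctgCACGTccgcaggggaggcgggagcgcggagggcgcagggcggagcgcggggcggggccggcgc
Ankrd37 (chr8:45999851-46000000, minus strand): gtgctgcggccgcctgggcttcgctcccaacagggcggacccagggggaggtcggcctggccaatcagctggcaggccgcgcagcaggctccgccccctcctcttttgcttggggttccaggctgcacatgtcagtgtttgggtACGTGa
Bnip3 (chr7:138909507-138909656, minus strand): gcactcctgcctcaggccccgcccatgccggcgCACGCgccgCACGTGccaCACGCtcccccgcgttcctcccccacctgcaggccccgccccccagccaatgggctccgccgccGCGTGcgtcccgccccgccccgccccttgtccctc
Slc2a1 (chr4:119108595-119108744, plus strand): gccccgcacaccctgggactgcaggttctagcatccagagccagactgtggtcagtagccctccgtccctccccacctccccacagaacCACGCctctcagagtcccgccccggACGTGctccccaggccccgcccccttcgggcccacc
Pfkfb3 (chr2:11502091-11502240, minus strand): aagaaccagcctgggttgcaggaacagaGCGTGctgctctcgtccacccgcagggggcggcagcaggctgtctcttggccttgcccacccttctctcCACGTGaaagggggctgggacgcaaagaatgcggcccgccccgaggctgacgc
Hk2 (chr6:82774455-82774604, minus strand): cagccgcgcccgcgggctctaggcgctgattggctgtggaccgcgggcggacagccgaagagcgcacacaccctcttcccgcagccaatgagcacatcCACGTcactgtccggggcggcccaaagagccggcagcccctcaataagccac
Gpi1 (chr7:34230337-34230486, minus strand): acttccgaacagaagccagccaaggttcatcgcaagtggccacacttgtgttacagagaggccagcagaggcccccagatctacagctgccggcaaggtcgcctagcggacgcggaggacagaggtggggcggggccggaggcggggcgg
These stretches hold 3 matches in Ero1l, 1 in Ankrd37, 5 in Bnip3, 2 in Slc2a1, 3 in Pfkfb3 and 1 in Hk2. Gpi1, whose ratios between bins were 3.0 and 2.9, and Tpi1, with 3.5 and 3.1, have no match in their windows. For Pfkfb3 the window with the most matches of its 2 windows is shown. A match shows only that these letters are present in the window.

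The study compared the libraries to ask how deleting Porcn in host macrophages changes the other cells of the tumour. Among tumour-like cells, 25 of the 31 genes had a log2 ratio of knockout to control above 0, but almost all by less than 1.5 times. Of all 17406 genes read in the class, 7107 had a log2 ratio above 0. A gene was counted as higher or lower where it differed by at least 1.5 times with at least 20 UMIs over both libraries. Of the 31 genes, 1 was higher and 1 was lower by that rule, smaller shares than the 9.75% higher and 6.55% lower among all genes read in the class. The median log2 ratio was 0.18 for the glycolysis genes, 0.35 for the hypoxia-response genes and −0.06 for all genes. Both calls rest on few molecules, with 25 control and 34 knockout UMIs for Adm and 61 and 23 UMIs for Slc16a3, and with a minimum of 100 UMIs neither count remained. Adm was highest in fibroblast-like and Slc16a3 in neutrophil-like cells. No free RNA limit was set for tumour-like cells, and the part of free RNA from other classes in these 2 values was not tested. With called doublets kept, the hypoxia-response median was 0.15.

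Among uptake and upper-pathway genes, Slc2a1 was at 129.60 CPM in control and 168.83 CPM in knockout tumour-like cells, a ratio of 1.30 (1.28 to 1.33). Slc2a3 stood at 0.64 and 0.67 CPM. The hexokinases had ratios near 1, with Hk1 at 102.94 and 102.23 CPM and Hk2 at 128.01 and 126.18 CPM. Gpi1, the glucose-phosphate isomerase, was at 344.44 and 399.27 CPM. The phosphofructokinase subunits were at 83.73 and 98.90 CPM for Pfkl and at 58.92 and 62.60 CPM for Pfkp, with Pfkfb3 at 22.49 and 25.30 CPM. The aldolase Aldoa was at 1013.07 and 1206.82 CPM. The triose isomerase Tpi1 was at 908.03 and 1039.41 CPM. No gene of this group was past the fold, and the log2 ratio of Pfkfb3, 0.17, became −0.27 with doublets kept.

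None of the 5 lower-pathway genes was past the fold, with ratios of 1.07 to 1.30. Gapdh was at 2746.86 CPM in control and 3024.38 CPM in knockout tumour-like cells, and its log2 ratio of 0.14 became −0.02 with doublets kept. Pgk1 was at 1686.59 and 2188.57 CPM, the widest gap of the group. The mutase Pgam1 was at 1083.16 and 1320.41 CPM, and the enolase Eno1 at 420.97 and 452.08 CPM. Pkm, the pyruvate kinase, was at 1053.27 and 1296.79 CPM. Ldha, the lactate dehydrogenase subunit known as a HIF target, was at 1075.45 and 1211.40 CPM. Pdk1 was at 38.04 and 44.26 CPM, and Slc16a3 at 0.41 and 0.23 CPM.

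Apart from Adm, no hypoxia-response gene was past the fold in tumour-like cells. Bnip3 was at 234.87 CPM in control and 342.17 CPM in knockout tumour-like cells, a ratio of 1.46 (1.44 to 1.48). Ero1l was at 173.90 and 250.94 CPM. Egln1 was at 178.47 and 243.64 CPM. Higd1a was at 345.71 and 448.98 CPM, P4ha1 at 136.00 and 174.01 CPM and Ddit4 at 40.85 and 52.20 CPM. Ankrd37 was at 67.06 and 76.89 CPM, and its log2 ratio of 0.20 became −0.07 with doublets kept. P4ha2 was at 53.01 and 60.75 CPM. Log2 ratios just below 0 were those of Ndrg1 at 380.23 and 377.97 CPM, Car9 at 175.43 and 172.21 CPM and Egln3 at 129.97 and 119.17 CPM. Adm was at 0.17 and 0.34 CPM. Hif1a mRNA was at 152.98 and 156.53 CPM, a log2 ratio of 0.03.

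**Figure D3:**
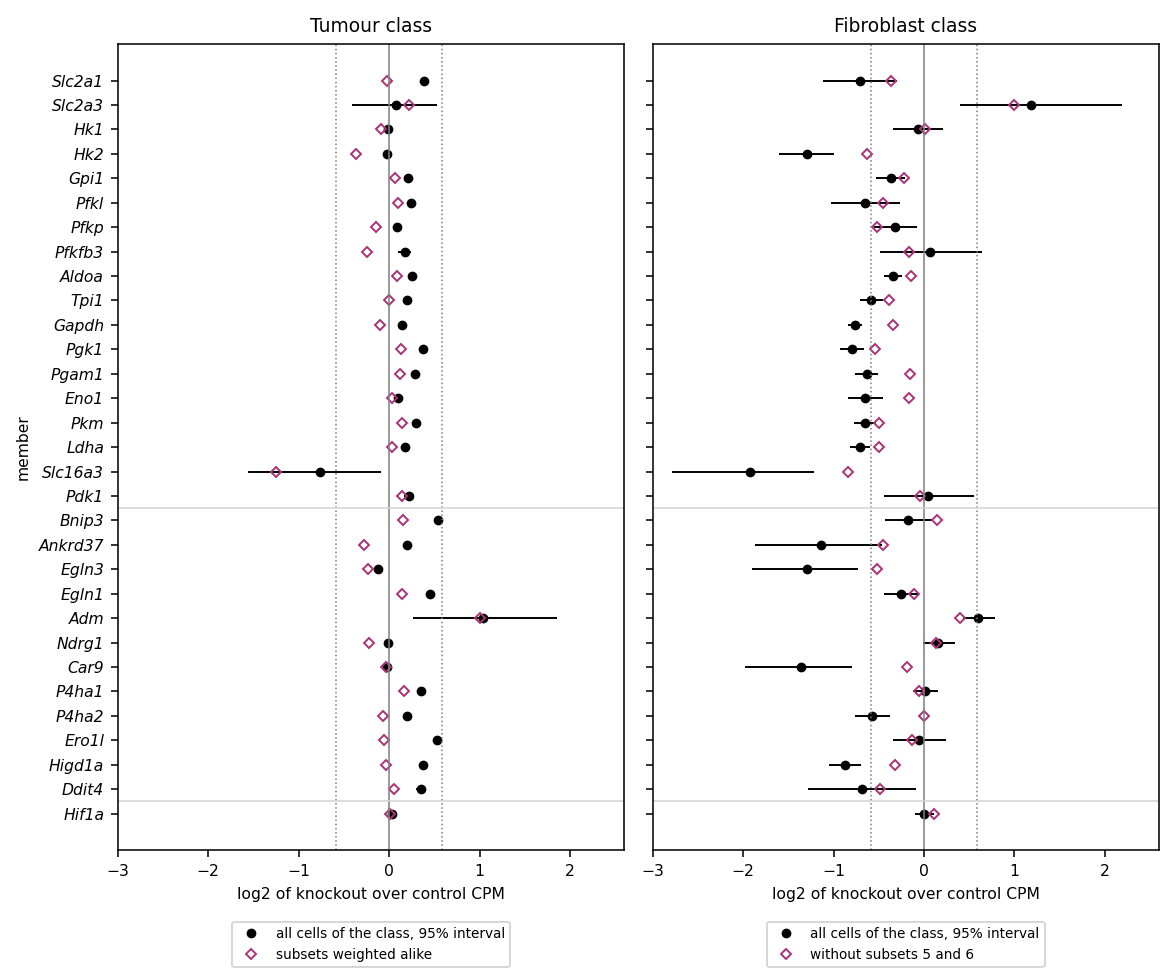
Log2 ratio of knockout to control CPM (pseudocount of 1 UMI) for each of the 31 genes in tumour-like (left) and fibroblast-like cells (right). Filled points with bars are all cells of the class with 95% counting intervals, open diamonds are subsets weighted alike (left) or the class without subsets 5 and 6 (right), and dotted lines mark 1.5 times. Most filled points lie above 0 on the left and below 0 on the right, and most diamonds lie nearer to 0.

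The tumour-like class differed in its make-up between the libraries. The cells were grouped again without the 31 genes and the listed pathway genes. Subset 3, led by Inhba, Hilpda, Mgarp and Igfbp3 together with the interferon-response genes Rsad2 and Ifit3, took 10.5% (9.91 to 11.2) of control and 25.8% (24.6 to 26.9) of knockout tumour-like cells, 993 and 1484 cells. Subset 2, led by Tmeff2, Adamts1 and Fn1, took 30.5% and 17.4%, and subset 1, led by Slurp1, Rbp2 and Muc5ac, 26.8% and 24.4%. Genes that vary with the hypoxia response, such as Mgarp and Igfbp3, took part in the grouping.

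Subset 3 was the highest of the subsets for both lists. Its summed glycolysis level was 19728 CPM in control and 19505 CPM in knockout cells, against 9299 and 9853 CPM in subset 1 and 7978 and 8852 CPM in subset 2. Subset 4, led by Slurp1, Lgals2 and Hilpda, came next with 16671 and 16079 CPM. For the hypoxia-response sum, subset 3 was at 4853 and 4300 CPM, subset 4 at 2383 and 2086 CPM, and the other subsets compared at 1256 to 1657 CPM in both libraries. Ero1l ranged from 78.6 CPM in subset 2 to 726.0 CPM in subset 3 of control cells, and from 84.8 CPM in subset 6 to 611.8 CPM in subset 3 of knockout cells. Subset 5, whose cells had medians of only 4285 and 4114 UMIs, had the lowest Gapdh, at 797 and 473 CPM. Subset 3 also had high summed stress and interferon-response levels, 3076 and 3731 CPM over both libraries. The stress sum was higher in subset 9, at 3524 CPM, and the interferon-response sum in subset 7, at 7845 CPM. Glycolysis sums in control and knockout cells were 8842 and 9419 CPM in subset 9 and 9621 and 9877 CPM in subset 7. The part of the stress and interferon-response genes in the glycolysis level of subset 3 was not tested.

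The ratios were also computed with the 8 subsets that had enough cells in each library given the same weights. Because the subsets were formed with genes that vary with the hypoxia response, this weighting in part holds alike the state being compared, and what accounts for the difference between the libraries was not tested. With it the median log2 ratio was 0.03 for the glycolysis genes and −0.03 for the hypoxia-response genes. The log2 ratio of Slc2a1 went from 0.38 to −0.03, Ero1l from 0.53 to −0.05, Higd1a from 0.38 to −0.04 and Bnip3 from 0.54 to 0.15. Egln1 went from 0.45 to 0.14, Pgk1 from 0.38 to 0.13, Hk2 from −0.02 to −0.37 and Ndrg1 from −0.01 to −0.22. Pfkp, Pfkfb3, Gapdh, Ankrd37 and P4ha2, all above 0 before, were below 0 with this weighting. Leaving out subset 3 alone gave medians of 0.06 and 0.09. Inside subset 3 none of the 31 genes was 1.5 times higher or lower in the knockout cells. In subset 9 Bnip3, Egln1 and Ero1l were higher, with log2 ratios of 0.72, 0.78 and 0.79. In subset 4 Pfkfb3 (−0.95), Hk2 (−0.64) and Ankrd37 (−0.61) were lower. Gapdh (−0.75) and P4ha2 (−0.60) were lower in subset 5, and Pfkfb3 (−0.67) in subset 6. The share of all genes past the fold inside each subset was not computed.

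The share of cells in the top bin of hypoxia-response UMIs was 16.4% (15.6 to 17.2) of control and 23.8% (22.6 to 24.9) of knockout cells at 5000 UMIs per cell, and 15.7% and 22.2% without thinning, at the same share of a cell's UMIs. Cells of subset 3 made up 48.5% of the control and 69.5% of the knockout cells of the top bin. Outside subset 3 9.49% (8.84 to 10.2) of the control cells and 9.91% (8.98 to 10.9) of the knockout cells were in the top bin, intervals that overlap, with the same limit on what a split by subset shows. Inside subset 3 these shares were 71.7% and 61.4%. With 1 pooled library per genotype, the share of subset 3 in a genotype and in a library cannot be told apart.

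**Figure D4:**
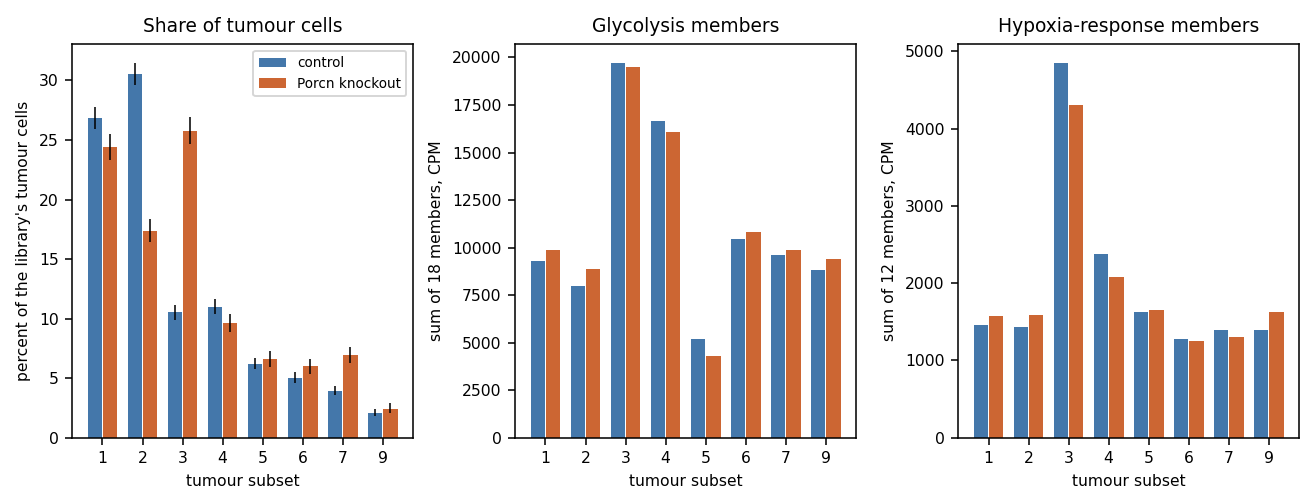
Percent of each library's tumour-like cells in the 8 compared subsets, with 95% binomial intervals (left), and the summed CPM of the 18 glycolysis genes (middle) and the 12 hypoxia-response genes (right) in each subset and library. Subset 3 takes 10.5% of control and 25.8% of knockout cells and has the highest sums in both libraries.

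Fibroblast-like cells went the other way. In the knockout library 15 of the 31 genes were at least 1.5 times lower and 2 were higher, beside 13% higher and 7.2% lower among all genes read in the class. The median log2 ratio was −0.64 for the glycolysis genes and −0.41 for the hypoxia-response genes, against 0.07 for all genes. The share of lower genes exceeded the background, but the count depends on 2 small subsets of the class, described after the values, and without them 2 genes were lower and 1 higher. It also ranged from 8 with means over cells to 23 at a coarser clustering that put 908 control and 785 knockout cells in the class. A cluster of 265 control and 45 knockout cells, led by Saa3 and collagen genes, stayed unnamed and is not part of the class. What it would add to these values was not tested. Of the 15 lower genes, 6 were over the free RNA limit in both libraries, namely Hk2, Pfkl, Ldha, Slc16a3, Higd1a and Ddit4.

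Uptake and upper-pathway values were as follows. Slc2a1 was at 22.64 CPM in control and 13.88 CPM in knockout fibroblast-like cells, below the free RNA limit in both libraries. Slc2a3 was at 3.03 and 7.22 CPM, from 15 and 51 UMIs, 1 of the 2 genes that were higher. Hk1 was level at 39.01 and 37.25 CPM, whereas Hk2 was at 50.12 and 20.39 CPM. Gpi1 was at 124.50 and 96.45 CPM, Pfkl at 24.86 and 15.86 CPM, and Pfkp at 55.18 and 44.33 CPM. The regulator Pfkfb3 was at 9.30 and 9.77 CPM. Aldoa was at 323.99 and 255.36 CPM, and Tpi1 at 215.45 and 143.76 CPM.

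All 5 lower-pathway genes were past the fold. Gapdh was at 604.93 CPM in control and 357.33 CPM in knockout fibroblast-like cells. The control levels of Gapdh, Pgam1, Eno1 and Pkm, but not their knockout levels, were below the free RNA limit. Pgk1 was at 218.69 and 125.77 CPM, below the free RNA limit in both libraries. Pgam1 was at 215.45 and 139.08 CPM, Eno1 at 91.76 and 58.49 CPM, and Pkm at 234.66 and 149.00 CPM. Ldha was at 296.50 and 181.15 CPM, a ratio of 0.61 (0.57 to 0.66). The exporter Slc16a3 was at 11.12 and 2.83 CPM and the kinase Pdk1 at 11.92 and 12.32 CPM, so lactate handling was split.

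Of the hypoxia-response genes, Adm was higher, at 77.81 CPM in control and 118.26 CPM in knockout fibroblast-like cells, a ratio of 1.52 (1.35 to 1.72). Higd1a was at 120.46 and 65.72 CPM and Ddit4 at 10.71 and 6.66 CPM, both past the fold. Ankrd37 (9.50 and 4.25 CPM), Egln3 (14.35 and 5.81 CPM) and Car9 (14.35 and 5.52 CPM) were lower but below the free RNA limit in both libraries. The collagen hydroxylases were at 145.93 and 147.58 CPM for P4ha1 and at 91.56 and 61.61 CPM for P4ha2. Bnip3 was at 46.08 and 40.93 CPM, Egln1 at 78.82 and 66.28 CPM, Ndrg1 at 85.90 and 96.03 CPM and Ero1l at 34.16 and 33.00 CPM. The control levels of Bnip3, Ndrg1 and Ero1l were also below the free RNA limit. Hif1a mRNA was at 246.58 and 247.43 CPM, a log2 ratio of 0.00.

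The subsets of the class carried unequal shares of the libraries. Subset 6, with 41 control and 26 knockout cells and led by Spp1, Lgals2 and Krt18, held keratins at 36% and 29.3% of their tumour-like level and had the highest glycolysis sums, 6083 and 6161 CPM. Subset 5, led by Apod, Ccl8 and Prg4, had 108 control but only 2 knockout cells and a control glycolysis sum of 2020 CPM. In subsets 1 to 4 the sums were 1637, 1252, 1842 and 1730 CPM in control and 1265, 1265, 1678 and 1232 CPM in knockout cells. They were lower in the knockout library in 3 of these 4 subsets and level in subset 2. Adm showed unlike differences between subsets. It was at 24.0 CPM in control and 67.0 CPM in knockout cells of subset 1 and at 82.9 and 132 CPM in subset 3, but at 173 and 157 CPM in subset 2 and 142 and 155 CPM in subset 4. Hk2 was lower in subset 1 (32.5 and 12.3 CPM) and subset 3 (25.2 and 11.9 CPM), the latter from 24 and 9 UMIs, and not in subset 2 (20.7 and 23.8 CPM).

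Without subset 6, 9 of the 31 genes were lower, with medians of −0.39 for glycolysis and −0.23 for hypoxia-response genes, and the keratin share was 1.84% in control and 1.47% in knockout cells. Without subset 5, 16 were lower. Without both, in 256 control and 690 knockout cells, only Hk2 (25 and 16.2 CPM) and Slc16a3 were lower and only Slc2a3 was higher. The medians were then −0.36 and −0.11, and the keratin share was 1.97% and 1.46%. Gapdh was then at 341 and 270 CPM, a ratio of 0.79 (0.73 to 0.86), and Ldha at 211 and 150 CPM, a ratio of 0.71 (0.64 to 0.79). Adm was at 87.8 and 116.1 CPM, a ratio of 1.32 (1.14 to 1.54). The intervals of Gapdh, Ldha and Adm still lay on the same side of 1, with smaller differences. P4ha2 was level, at 60.1 and 60.4 CPM. With free tumour RNA subtracted from the whole class, 14 genes were lower.

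**Figure D5:**
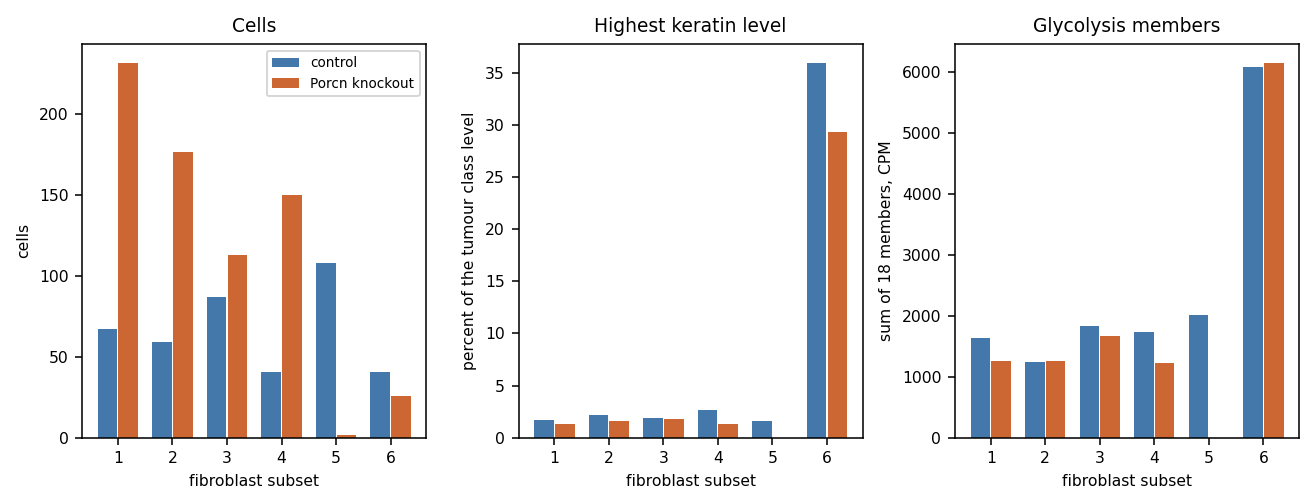
Number of cells (left), highest keratin level as a percent of its tumour-like level (middle) and summed CPM of the 18 glycolysis genes (right) in fibroblast-like subsets 1 to 6 of the control and the knockout library. The knockout bars of subset 5, with 2 cells, are drawn only for the cell number. Subset 6 stands apart with keratins at 36% and 29.3% and the highest glycolysis sums.

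In monocyte/macrophage-like cells, which are among the host cells that Csf1r-Cre targets, 30 of the 31 genes could be read and few differed. Whether the Cre acted in other host classes was not checked. Pfkfb3 was at 86.6 CPM in control and 130 CPM in knockout cells, a ratio of 1.50 that was no longer past the fold under 6 alternatives. Egln3, the hydroxylase most readily induced by hypoxia, was at 166 and 90.6 CPM, a ratio of 0.55 (0.47 to 0.64). Over all 31 genes 1 was higher and 2 were lower, the second being Car9, which is below the free RNA limit in both libraries. The background was 7.44% higher and 11.1% lower, and the genes' shares were below it.

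In neutrophil-like cells 28 of the 31 genes had at least 20 UMIs, of which 7 were higher in the knockout library and none was lower, beside 17.5% higher and 18.9% lower among all genes read. Slc2a1 was at 193.8 CPM in control and 360.3 CPM in knockout cells, a ratio of 1.86 (1.48 to 2.33). Pfkl was at 40.2 and 82.3 CPM, and Tpi1 at 225.5 and 398.1 CPM. Bnip3 was at 59.7 and 104.5 CPM and Ero1l at 197.5 and 304.7 CPM. Ddit4 and Pdk1 had the largest ratios on the fewest molecules. Ddit4 had 12 and 27 UMIs, a ratio of 4.10 (2.01 to 8.89), and Pdk1 had 7 and 16 UMIs, a ratio of 4.17 (1.62 to 12). These are 292 and 181 cells with medians of 1711.5 and 1861 UMIs. When called doublets were kept before the grouping, 1 gene was higher and 4 were lower.

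In T-like cells 29 of the 31 genes had at least 20 UMIs, of which none was higher and 4 were lower, beside 10.8% higher and 16.5% lower among all genes read. Slc16a3 was at 41.6 CPM in control and 25.7 CPM in knockout cells, Bnip3 at 73.3 and 48.8 CPM, Egln3 at 33.3 and 22.1 CPM, and Ndrg1 at 51.6 and 27.8 CPM. Hif1a was at 516 and 483 CPM. The share of lower genes was near the background, and 2 were lower under several alternatives, among them doublets kept. In the same comparison the median log2 ratio of the immediate-early and heat-shock list was 0.45 among tumour-like cells, 0.58 among T-like cells, 0.69 among neutrophil-like cells, 0.57 among monocyte/macrophage-like cells and −0.17 among fibroblast-like cells. Its part in the values of the 31 genes was not tested.

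Further genes of the same pathways were read from lists that exclude the 31. In tumour-like cells 4 of 28 further hypoxia-response genes were higher and none lower, beside 9.75% higher and 6.55% lower among all genes read. The median log2 ratio of the 28 was 0.19. The largest log2 ratios were those of Rora (3.42 and 7.03 CPM in control and knockout cells), Hmox1 (16.1 and 29.4 CPM) and Edn1, which encodes an endothelin (0.33 and 0.55 CPM). Of 21 further glycolysis genes, 1 was higher and 2 were lower, with a median of −0.16, and among genes with at least 100 UMIs the largest differences reported are those of Pklr, the liver pyruvate kinase (1.33 and 0.59 CPM), and Pfkfb2 (13.7 and 9.27 CPM). None of 10 genes of the HIF machinery, 25 of oxidative metabolism and 7 of the pentose phosphate pathway was past the fold, and the latter 2 lists had medians of −0.09 and −0.19. Among genes of these 3 lists with at least 100 UMIs, the largest log2 ratios were 0.12 for Hif1an, −0.10 for Rbx1 and −0.09 for Eloc, then −0.34 for Ndufa4, −0.26 for Cs and −0.19 for Ogdh, and −0.27 for Pgd, −0.21 for Rpia and −0.21 for Pgls.

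In fibroblast-like cells 2 of 28 further hypoxia-response genes were higher and 6 were lower, with a median of −0.11. Stc2, which encodes stanniocalcin, was at 5.66 CPM in control and 17.7 CPM in knockout cells, Rora, a nuclear receptor, at 317 and 554 CPM, and Bhlhe40, a transcriptional repressor induced by hypoxia, at 45.1 and 22.9 CPM. Of 16 further glycolysis genes 1 was higher and none lower, with a median of −0.12. Pfkfb4 had a log2 ratio of 0.53, the lactate transporter Slc16a1 −0.42 and Pgm1 −0.39. Of the 25 oxidative genes none was higher and 1 was lower, Cox5a, with a log2 ratio of −0.64, followed by Cox6c and Atp5b, both at −0.40. The median of that list was −0.16, against −0.64 for the glycolysis genes among the 31. None of 10 genes of the HIF machinery was past the fold, and the largest log2 ratio among those named by rule was that of Epas1, which encodes the HIF subunit of endothelial and stromal cells, at 0.41, followed by Cul2 at 0.32 and Eloc at −0.31. Of 7 genes of the pentose phosphate pathway 1 was higher, Rpia, at 0.63, with Pgls at −0.44 and Pgd at −0.25.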

How the data were processed

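Single-cell 3′ libraries (10x Genomics) were counted by the authors, who deposited raw UMI counts per gene and barcode, per the file headers. The submitters' processing notes name Cell Ranger 3.1.3 and mm10, while the file header gives 8.0.0. The genome annotation was not given in the sources used here.

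The cell filter asked for 500 or more genes and no more than 15% mitochondrial UMIs, and Scrublet (through scanpy 1.11.5) removed 148 control and 341 knockout doublets. Counts were scaled to 10000 per cell, and 2000 variable genes without the 31 genes and listed pathway genes, 30 components, 15 neighbours and Leiden clustering at resolution 1 (leidenalg 0.10.2) gave clusters. Clusters were named from marker lists by a score chosen after the clusters were seen, and 411 control and 262 knockout cells stayed unnamed. Among these, a cluster of 265 control and 45 knockout cells scored highest for mesothelial markers. It was led by Saa3, Col1a2, Col1a1 and Dcn, with more fibroblast than mesothelial markers among its leading genes. Of the tumour-like cells, 874 control and 152 knockout cells lie in a cluster with no tumour marker among its leading genes. Tumour-like and fibroblast-like cells were clustered again at 0.5.

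UMIs were summed per class and library. Log2 ratios use a pseudocount of 1 UMI. Intervals are exact Poisson, conditional or Clopper-Pearson at 95%. Python 3.11.15, numpy 2.4.6, scipy 1.17.1 and pandas 2.3.3 were used, and the ratio code was tested on simulated counts. All 31 genes are named with values in tumour-like and fibroblast-like cells. In other classes, genes over the free RNA limit and past the fold are named, in each further list the 3 with the largest ratio among those with at least 100 UMIs, and across bins the 10 genes, with at least 200 UMIs in each library, of the largest smaller ratio. Epcam was left out of the free RNA measure because tumour-like cells lacked it. The members and lists were chosen with earlier results of these data known. Alternatives were other cell filters, doublets kept, another resolution, variable genes with the 31 genes, per-cell means, other scalings, a fold of 2, a minimum of 100 UMIs, other depths of thinning and subsets weighted alike or left out. Aldoa is the first of 2 identifiers with that symbol. A few genes outside the 31 that these rules name are not reported here.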

Additional observations from a re-analysis of the deposited data

Results flagged for a closer look

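In 3 genes the knockout was past the fold in opposite directions in 2 classes of cells, counting classes where the gene passed the free RNA limit in a library. Slc2a1, lower in fibroblast-like and higher in neutrophil-like cells, was left out because it did not pass in fibroblast-like cells. With 1 library per genotype the difference between the classes was not tested. Pfkl had a log2 ratio of knockout to control of −0.65 among fibroblast-like cells, against 1.03 among neutrophil-like cells. Bnip3 had −0.61 among T-like cells, against 0.81 among neutrophil-like cells. Ddit4 had −0.68 among fibroblast-like cells, against 1.97 among neutrophil-like cells, the latter from 12 control and 27 knockout UMIs. Without fibroblast-like subsets 5 and 6 the fibroblast-like ratios were −0.46 for Pfkl and −0.49 for Ddit4, neither past the fold. With doublets kept, 1 gene in all was higher among neutrophil-like cells, so most of those calls were lost.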

How the results depend on the processing

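No value changed direction where both it and its alternative were past the fold, over the alternatives run. Of the single-gene log2 ratios, 224 in tumour-like and 105 in fibroblast-like cells moved by less than 0.1, and 55 and 143 moved by 0.1 or more. Values below are median log2 ratios (glycolysis, then hypoxia response, where both are given) and counts of the 31 genes, and the cause of the changes was not tested. With doublets kept, the hypoxia-response median was 0.15 in tumour-like cells, the medians −0.92 and −0.54 in fibroblast-like cells (761 control and 824 knockout cells), −0.0396 for hypoxia response in monocyte/macrophage-like cells, 0.00756 and 0.19 in neutrophil-like cells and 0.0235 for glycolysis in T-like cells. Genes higher and lower were then 0 and 1 among monocyte/macrophage-like cells, 1 and 4 among neutrophil-like cells, and 2 were lower among T-like cells. At resolution 0.5, 0 tumour-like and 23 fibroblast-like genes were lower, with fibroblast-like medians of −1.48 and −1.11 (908 and 785 cells), 0 were higher in monocyte/macrophage-like cells, 4 higher and 1 lower in neutrophil-like and 2 lower in T-like cells, with a T-like hypoxia-response median of −0.42. With the 31 genes among the variable genes, 0 were lower in tumour-like, 0 higher in monocyte/macrophage-like, 1 lower in neutrophil-like and 2 lower in T-like cells, and medians were −1.07 and −0.64 in fibroblast-like cells and, for hypoxia response, −0.39 for T-like and 0.34 for neutrophil-like cells. With means over cells, 2 were higher in tumour-like, 0 higher and 8 lower in fibroblast-like, 5 lower in monocyte/macrophage-like and 1 higher in T-like cells, with medians of −0.43 and −0.23 in fibroblast-like cells and, for hypoxia response, 0.16 for neutrophil-like and −0.36 for monocyte/macrophage-like cells. Centred on the median gene, 2 were higher in tumour-like and 1 in fibroblast-like cells, and 2 were lower in T-like cells. With at least 100 UMIs, 0 were higher and 0 lower in tumour-like cells, 1 was higher in fibroblast-like cells (hypoxia-response median −0.25), 1 lower in monocyte/macrophage-like and 3 higher in neutrophil-like cells. At a fold of 2, 0 were lower in tumour-like, 1 higher and 5 lower in fibroblast-like, 0 higher and 0 lower in monocyte/macrophage-like, 3 higher in neutrophil-like and 0 lower in T-like cells. The strict filter (1000 genes, 10% mitochondrial) gave medians of −1.10 and −0.79 in fibroblast-like and −0.0245 and −0.37 in monocyte/macrophage-like cells and −0.30 for hypoxia response in T-like cells, with 0 higher in monocyte/macrophage-like and 1 higher in T-like cells. The loose filter (200 genes, 20%) gave 1 higher in fibroblast-like and 2 lower in T-like cells (hypoxia-response median −0.35). Without mitochondrial and ribosomal protein genes in the total, 1 was higher in fibroblast-like, 0 higher in monocyte/macrophage-like and 1 lower in neutrophil-like cells. Weighting tumour-like subsets alike gave medians of 0.0345 and −0.0340. The alternatives that follow were chosen after seeing the data. Without tumour-like subset 3 the medians were 0.0613 and 0.0866, and without the cluster lacking leading markers 0 were lower. Without the keratin-bearing fibroblast-like subset 1 was higher and 9 lower (−0.39 and −0.23), without the subset mostly of the control library 1 was higher (hypoxia-response median −0.27), and without both 1 was higher and 2 lower (−0.36 and −0.11). With free tumour RNA subtracted 1 was higher in fibroblast-like, 1 lower in monocyte/macrophage-like, 1 lower in neutrophil-like (glycolysis median 0.32) and 1 higher in T-like cells. Thinned to 2000 UMIs, the top bin held 14.8% of control and 21.9% of knockout cells, and median log2 ratios of glycolysis genes between bins were 1.64 and 1.47. At 10000 UMIs they were 1.99 and 1.87. No paired analysis was possible because each group has 1 library, and leaving out a replicate was not possible for the same reason. Neutrophil-like cells under the strict filter (48 control and 11 knockout cells) and a broader tumour-like class, for which no further cluster qualified, were not run. Low UMI numbers limit the neutrophil-like values and those of Slc2a3, Slc16a3 and Adm in tumour-like cells.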
